A study of Mus musculus with 6 samples.

Results

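Genes that intestinal epithelium is known to switch on in response to the cytokine IL-22 were followed through 6 RNA libraries of sorted group 3 innate lymphoid cells (ILC3s), the lymphocytes that make IL-22. The 10 genes are the antimicrobial lectins Reg3a, Reg3b and Reg3g, the related lectin Reg4, the fucosyltransferase Fut2, the siderophore-binding lipocalin Lcn2, the inducible nitric oxide synthase Nos2, the serum amyloid A genes Saa1 and Saa3, and the oxidase Duox2. All 10 of the 10 named symbols were found among the 25075 in the count table, and 8 of them passed the filter on low counts that left 15261 genes for testing. The other two, Saa1 and Saa3, had at most 5 counts in any library. The genes were chosen by name, with the difference between the groups of these libraries already known. Their values between groups are therefore given as a description, without a test.

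The cells were lineage-negative, CD90.2-positive and KLRG1-negative cells of small intestine, collected at 2000 cells a library, and the mice had a b6 background. Both groups carried floxed Batf alleles (Batf fl/fl). The 3 control libraries, called WT by the study, were PLZF-Cre-, and the 3 Batf-deficient libraries were PLZF-Cre+, in which the Cre recombinase is driven by the gene of the transcription factor PLZF. The age of the mice is not given in the sources used here, and the series text calls the libraries of a group biological replicates. The sort was for lymphoid cells and not for epithelium.

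IL-22 is made by ILC3s and some T cells and acts on epithelium through the receptor chains IL-22RA1 and IL-10RB, which signal through JAK1, TYK2 and STAT3. STAT3 then raises the transcription of secreted lectins that bind bacteria, of enzymes that fucosylate the cell surface and of oxidases that make peroxide at the mucosa. Lymphocytes lack IL-22RA1, so a response of these genes to IL-22 is one of the tissue around an ILC3. Several of the genes are also made elsewhere: Nos2 by macrophages, Lcn2 by neutrophils, and Reg genes by acinar cells of the pancreas. Which cells gave the transcripts counted here was not tested.

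The libraries held between 8228513 and 17334207 counts, and 3 counts corresponded to 0.155 to 0.425 CPM (library-scaled counts, with totals adjusted by TMM factors). Batf itself had 16.4 ± 2.13 CPM in the control and 40.2 ± 1.77 CPM in the Batf-deficient group (SD, n = 3 each, edgeR adjusted p = 1.70e-05). With TMM factors Batf thus went against the label, so the groups are called the libraries labelled control and labelled Batf-deficient. Scaling on a panel of 16 lymphocyte genes turned Batf to a log2 fold change of -1.20, in the direction of the label (edgeR adjusted p = 2.83e-05). Labelled Batf-deficient replicates 1 and 2 were nearly alike, with a mean chi-square per gene of 2.36, against 14.8 to 24.2 for the other pairs within a group, and were kept as separate libraries. The groups differed over most of the transcriptome: 64.4% of all genes tested passed the edgeR test (adjusted p under 0.05), 30.2% as higher and 34.1% as lower in the libraries labelled Batf-deficient. All 14 of 14 ILC3 markers were higher there, with a summed share of 0.992% to 1.05% of counts against 0.162% to 0.184%. With the lymphocyte panel 8 of them were higher and 5 lower, where 277 of all 15261 genes tested were higher and 13359 lower. All 18 pancreatic acinar markers were lower, with 7.90% to 8.27% of counts in the labelled control and 0.00802% to 0.0101% in the labelled Batf-deficient libraries. Most of the latter share was Zg16, which is also on the antimicrobial list below. Without Zg16 the shares were 7.69% to 8.07% and 0.00062% to 0.00093%. In bulk RNA, fewer cells of a type and less RNA per cell cannot be told apart.

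Reg3b, Reg3g and Reg3a lie close together on chromosome 6 (mm10, GENCODE). Reg3b spans 78370657 to 78373466 on the plus strand, Reg3a 78380709 to 78383827 on the plus strand, and Reg3g 78466269 to 78468872 on the minus strand. The other genes are spread over the genome: Reg4 at chr3:98222156-98236748, Fut2 at chr7:45648591-45666394, Saa3 at chr7:46711998-46715700, Saa1 at chr7:46740497-46742980, Lcn2 at chr2:32384633-32388252, Duox2 at chr2:122279247-122298449 and Nos2 at chr11:78920787-78960254. The bases just before the starts of Reg3b, Reg3g and Reg3a are shown as a description. Whether they bear on the difference between these paralogs in the libraries was not tested. Each is the 150 bases upstream of the RefSeq start (GRCm38.p6), 5′ to 3′ on the strand of the gene, and the capitals mark the longest run that Reg3b and Reg3g share. GENCODE annotates another Reg3b transcript that starts further upstream, so the whole Reg3b window lies within the GENCODE span of the gene.
Reg3b, chr6:78370735-78370884, plus strand: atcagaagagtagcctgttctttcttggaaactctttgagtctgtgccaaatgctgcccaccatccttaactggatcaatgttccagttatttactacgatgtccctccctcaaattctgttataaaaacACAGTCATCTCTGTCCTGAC
Reg3g, chr6:78468875-78469024, minus strand: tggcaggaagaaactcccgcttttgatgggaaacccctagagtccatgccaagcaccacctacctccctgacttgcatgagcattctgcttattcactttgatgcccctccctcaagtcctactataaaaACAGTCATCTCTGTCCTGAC
Reg3a, chr6:78380559-78380708, plus strand: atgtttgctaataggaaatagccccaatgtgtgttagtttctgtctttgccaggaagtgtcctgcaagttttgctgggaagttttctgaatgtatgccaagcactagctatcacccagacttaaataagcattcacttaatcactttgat

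The shared run of Reg3b and Reg3g is 20 bases long and ends at the start site. After global alignment, 68.4% of aligned columns were identical between Reg3b and Reg3g, 47.5% between Reg3b and Reg3a, and 45.6% between Reg3g and Reg3a. The windows were cut at each annotated start and not brought into register. The end of the Reg3a window resembles bases that lie further upstream in the Reg3g window, before the shared run. The lower identities with Reg3a therefore depend on its annotated start, and do not show that Reg3a lacks a similar stretch. A STAT-type motif, TTCNNNGAA, which reads the same on both strands, was searched for in the 250 bases upstream of the 8 genes of the set that have such a window. Reg3b held it, as TTCTTGGAA starting at position -129 from the start site, and the other 7 did not. The Lcn2 window, like that of Reg3b, lies wholly within the GENCODE span of its gene, and those of Duox2 and Saa3 lie partly within theirs. The bases upstream of the GENCODE starts of these genes were therefore not fully searched. Of 32851 windows of this length over all genes, 7.02% held the motif. A match describes the letters only, and these data do not measure binding. The transcripts of these paralogs share little sequence: of 1120 runs of 31 bases in Reg3b transcripts, 5 also occur in Reg3g and 0 in Reg3a. Saa1 and Duox2 are less certain, since 46.0% of the runs of 31 bases of Saa1 also occur in Saa2 and 10.3% of those of Duox2 in Duox1, neither of which was analysed here.

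Reg3b and Reg3g, which bind the cell walls of bacteria near the mucosa, had the highest CPM per kilobase of the set in every library and, with TMM factors, differed least between the groups. Reg3b had 264, 283 and 279.9 CPM in labelled control replicates 1 to 3 and 442, 435 and 485 CPM in the corresponding replicates labelled Batf-deficient. Every labelled Batf-deficient library was above every labelled control library, by a log2 fold change of 0.72 (SE 0.09). Reg3g had 296, 348 and 326 CPM against 375, 397 and 406 CPM, again without overlap, where 34.6% of all genes tested were higher without overlap. Its log2 fold change was 0.28 (SE 0.09). The sign of these small differences depends on the scale: with library totals Reg3b was at 0.34 and Reg3g at -0.10, and with the lymphocyte panel they were at -1.77 and -2.21. Both lectins together took 74.0% to 76.0% of all counts of the 10 genes in the labelled control and 91.0% to 91.5% in the labelled Batf-deficient libraries. The ratio of Reg3b to Reg3g counts needs no scaling between libraries. It was 0.812 to 0.892 in the labelled control and 1.10 to 1.19 in the labelled Batf-deficient libraries. Per kilobase of exon, Reg3b was at 241 ± 9.03 and 398 ± 23.9 CPM per kb and Reg3g at 153 ± 12.5 and 186 ± 7.51 CPM per kb (SD, n = 3 each).

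Reg3a, a paralog of Reg3b that lies near it on the chromosome, was almost absent from the libraries labelled Batf-deficient. It had 506, 1038 and 1191 counts (47.6, 59.3 and 61.7 CPM) in the labelled control libraries and 1, 0 and 2 counts in the labelled Batf-deficient libraries. The ratio of summed counts per scaled total was 514 (95% counting interval 176 to 2493), which covers counting error only. Reg4, a lectin of enteroendocrine and other secretory cells, had 90.3, 91.6 and 101 CPM against 1.11, 0.567 and 1.69 CPM, a log2 fold change of -6.27 (SE 0.24). In the labelled control libraries Reg4 was at 92.5 ± 5.91 and Reg3a at 68.1 ± 9.15 CPM per kb. In the other group both were near the floor while Reg3b and Reg3g were not.

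The Reg genes outside the set were looked at beside these. Reg1, a lectin of the exocrine pancreas, had 6256, 12026 and 11414 counts in the labelled control and 1, 4 and 5 counts in the labelled Batf-deficient libraries (edgeR adjusted p = 5.93e-12). Reg2 and Reg3d, with 367 and 552 counts summed over the labelled control libraries, had 0 counts in every labelled Batf-deficient library. With 3 counts for the whole group as the floor, Reg2 was at least 69.0-fold lower and Reg3d at least 103.7-fold lower. All 3 passed the edgeR test as lower, where 34.1% of all genes did. The pancreatic acinar genes were lower too: the elastase Cela2a had 637917 counts in the labelled control and 3 in the other group, and the lipase Pnlip 357979 and 2. The part of acinar RNA in the values of Reg3a was not tested.

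**Figure D1:**
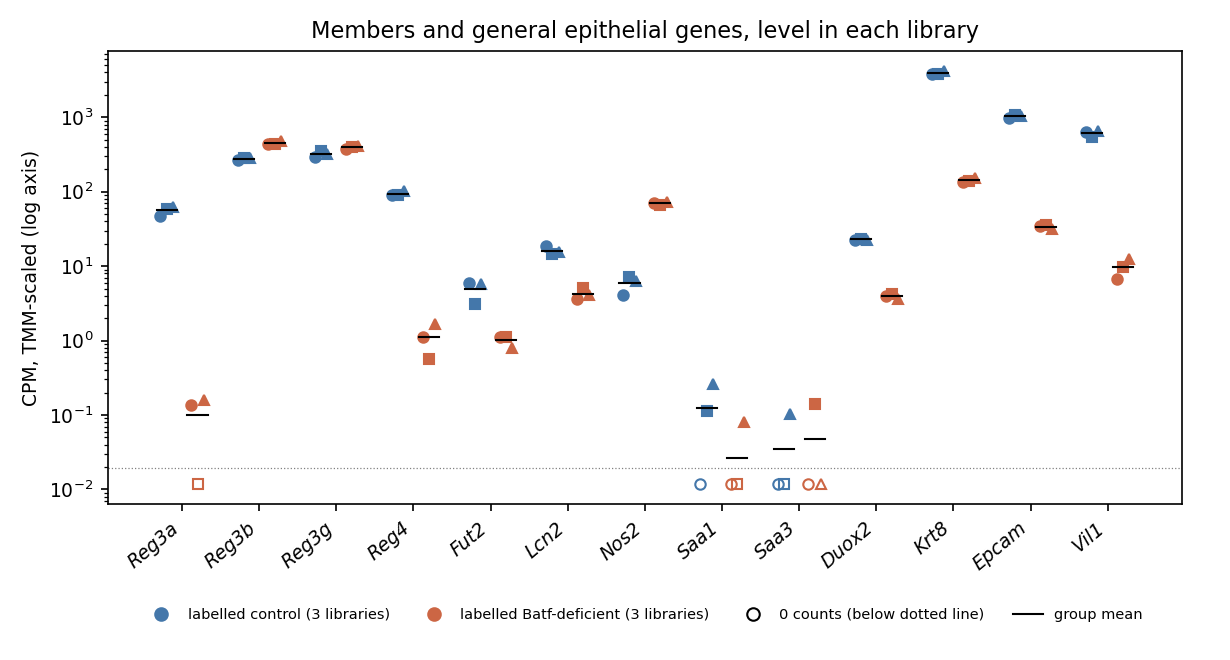
Level of the 10 genes and of the general epithelial genes Krt8, Epcam and Vil1 in each library, in TMM-scaled CPM on a log axis. Circles, squares and triangles are replicates 1, 2 and 3, bars are group means, and open symbols below the dotted line are libraries with 0 counts. Reg3b and Reg3g stay between 264 and 485 CPM in all 6 libraries, while Krt8, Epcam and Vil1 lie far lower in the labelled Batf-deficient libraries.

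Fut2, Lcn2 and Duox2 were lower in the libraries labelled Batf-deficient by log2 fold changes between -1.92 and -2.53. Fut2, which adds the fucose that commensal bacteria feed on, had 64, 54 and 110 counts (6.02, 3.08 and 5.70 CPM) against 8, 8 and 10 counts (1.11, 1.13 and 0.803 CPM), for a log2 fold change of -2.29 (SE 0.48). Lcn2, which withholds iron from bacteria, had 18.4, 14.8 and 15.4 CPM against 3.59, 5.10 and 4.09 CPM, for -1.92 (SE 0.26). Duox2, the peroxide-making oxidase of the apical membrane, had 22.7, 23.5 and 22.4 CPM against 4.01, 4.25 and 3.61 CPM, for -2.53 (SE 0.22). The groups did not overlap for any of these 3 genes, where 36.5% of all genes tested were lower without overlap. The standard error was widest for Fut2, whose labelled control replicate 2 was lower than the other two.

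Neutrophil and macrophage markers were measured beside Lcn2, since these cells can make it. Of 13 such markers tested 11 were lower, 1 was higher and 1 did not pass, where 34.1% of all genes tested were lower and 30.2% higher. Their summed share was 0.0632% to 0.0705% of counts in the labelled control and 0.00457% to 0.00542% in the labelled Batf-deficient libraries. Among them the complement genes C1qb and C1qc, made by tissue macrophages, had log2 fold changes of -4.73 and -4.84 and the growth factor receptor Csf1r -4.11, and the lysozyme Lyz2 fell from 205 to 25.7 CPM on average (edgeR adjusted p between 5.43e-10 and 5.16e-09). Neutrophil genes of the list, named here after their values were seen, did not share one pattern. Retnlg, a resistin-like gene of neutrophils, had 491 counts summed over the labelled control and 13 over the other group (edgeR adjusted p = 1.36e-06), and the lactoferrin gene Ltf had 155 and 2 (edgeR adjusted p = 0.000524). The chemokine receptor gene Cxcr2 was the one called higher, with 106 and 187 counts (edgeR adjusted p = 0.00203, not called higher with the lymphocyte panel), and the receptor gene Csf3r did not pass, with 77 and 33. The calprotectin genes and Ngp were near the floor in both groups: S100a8 had 20 and 7 counts summed over the group, S100a9 25 and 8, and Ngp 0 and 4. The part of these cells in the level of Lcn2 was not tested.

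Nos2 makes nitric oxide and was far higher in the group labelled Batf-deficient. There were 44, 126 and 122 counts (4.14, 7.19 and 6.32 CPM) in the labelled control, against 514, 475 and 909 counts (71.1, 67.3 and 73.0 CPM). The groups did not overlap, where 34.6% of all genes tested were higher without overlap. The log2 fold change was 3.56 (SE 0.19), and it stayed positive with library totals (3.18) and with the lymphocyte panel (1.08). In the order of log2 fold changes, 15 of the 16 panel genes had a smaller log2 fold change than Nos2, as did all 31 of the 31 epithelial genes tested. Counted within a library, there were 1.83, 3.06 and 2.75 Nos2 counts per 1000 counts of the lymphocyte panel in the labelled control. In the labelled Batf-deficient libraries there were 5.32, 5.10 and 5.94. The share of all genes whose groups do not overlap on this ratio was not counted. The macrophage markers named above, whose cells are a known source of Nos2, were lower in those libraries. The part of macrophages or of any other cells in the level of Nos2 was not tested.

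Saa1 and Saa3, acute-phase lipoproteins, were at the limit of detection. Saa1 had 0, 2 and 5 counts in the labelled control and 0, 0 and 1 in the labelled Batf-deficient libraries, and Saa3 had 0, 0 and 2 against 0, 1 and 0. The ratios of labelled control to labelled Batf-deficient were 3.95 (95% counting interval 0.507 to 178) and 1.13 (0.0587 to 66.5). A difference in either gene was not detectable at this depth.

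Of the 8 genes that passed the filter, 5 lay lower and 3 lay higher in the Batf-deficient group as labelled, and the CPM values of the groups did not overlap for any of the 8. The same edgeR threshold called 34.1% of all genes lower and 30.2% higher, and non-overlapping CPM values were found for 71.2% of all genes, 36.5% as lower and 34.6% as higher. Since the genes were named with this contrast in view, nothing is read from their count. Their log2 fold changes ran from -8.85 to 3.56 with a median of -2.11, while the median of all genes tested was 0.02, so the genes did not share one direction. With labelled Batf-deficient replicates 1 and 2 averaged into 1 sample, Reg3b was at 0.70, Reg3g at 0.25, Nos2 at 3.53, Lcn2 at -1.99, Fut2 at -2.42, Duox2 at -2.60, Reg4 at -6.15 and Reg3a at -9.02.

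The general epithelial genes of the same libraries gave another scale. Krt8, a keratin of simple epithelium, was at 3923 ± 190 and 142 ± 8.93 CPM, Epcam, an adhesion protein of all epithelia, at 1029 ± 54.6 and 33.9 ± 1.99 CPM, and Vil1, the villin of brush border microvilli, at 611 ± 53.3 and 9.62 ± 2.91 CPM (SD, n = 3 each). Together they made up 0.617% to 0.651% of counts in the labelled control and 0.0151% to 0.0179% in the labelled Batf-deficient libraries. The 10 genes as a whole kept a more even share of counts, at 0.0877% to 0.0945% and 0.0772% to 0.0892%, most of it from Reg3b and Reg3g.

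Set against Krt8, Epcam and Vil1 within a library, Reg3b and Reg3g stood far higher in the libraries labelled Batf-deficient. Per 1000 counts of the 3 epithelial genes there were 48.6, 52.2 and 47.9 counts of Reg3b in the labelled control and 2516, 2342 and 2476 in the labelled Batf-deficient libraries, a difference of 5.62 on the log2 scale. For Reg3g the values were 54.5, 64.3 and 55.7 against 2139, 2136 and 2073, a difference of 5.19. Each lectin thus had far fewer counts than the epithelial sum in every labelled control library and more counts than that sum in every library of the other group.

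The remaining genes lay on both sides of this scale. Nos2 went from 1.06 ± 0.283 to 380 ± 22.2 counts per 1000 epithelial counts, Lcn2 from 2.92 ± 0.418 to 22.9 ± 3.92, Duox2 from 4.12 ± 0.252 to 21.4 ± 2.56, and Fut2 from 0.884 ± 0.282 to 5.50 ± 1.22 (SD, n = 3 each). Lcn2, Duox2 and Fut2, lower in CPM, were therefore higher relative to Krt8, Epcam and Vil1, by 2.99, 2.39 and 2.74 on the log2 scale. Reg4, at 16.7, 16.9 and 17.3 against 6.30, 3.05 and 8.60, and Reg3a, at 10.1 ± 1.15 and 0.536 ± 0.464, were lower on both scales. With Vil1 alone as the denominator the difference of Reg4 shrank from -1.53 to -0.41 and that of Reg3a from -3.70 to -2.58, and with 2 counts added Reg3a was at -2.48. Vil1 alone also moved Lcn2 to 4.11, Fut2 to 3.86, Duox2 to 3.51 and Nos2 to 9.63. Using the median of the wider epithelial list as the denominator gave 5.82 for Reg3b and 5.38 for Reg3g.

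**Figure D2:**
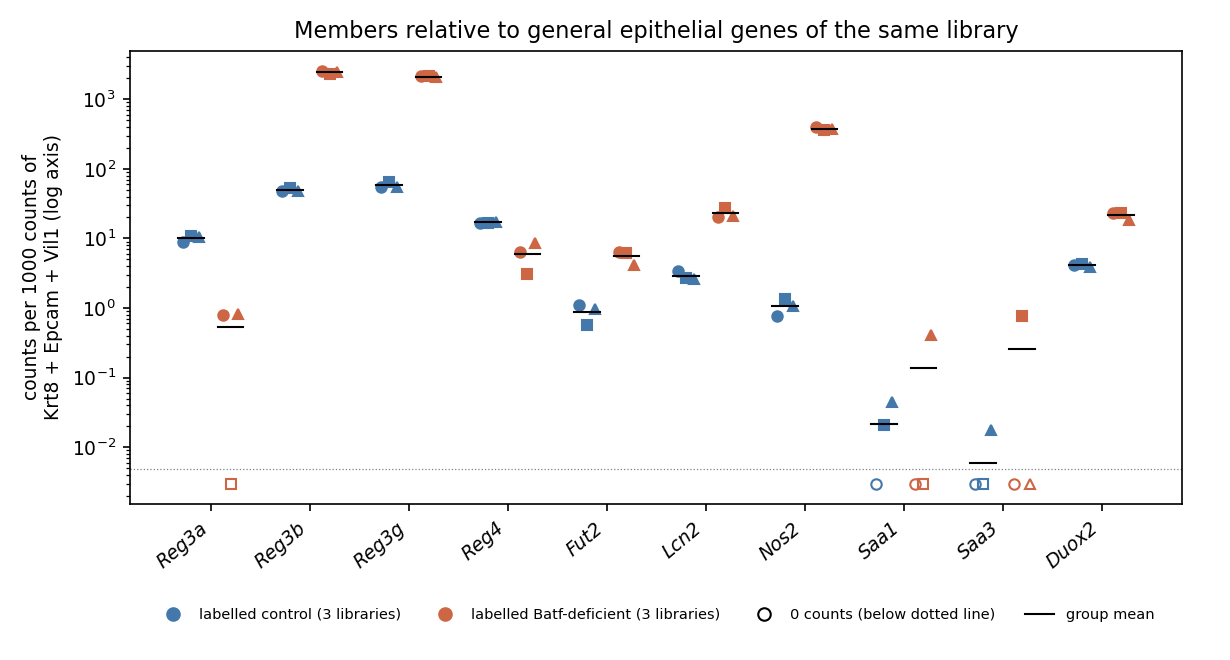
Counts of each of the 10 genes per 1000 counts of Krt8, Epcam and Vil1 in the same library, on a log axis, with symbols as in the plot of CPM by library. Reg3b and Reg3g lie between 47.9 and 64.3 in the labelled control and between 2073 and 2516 in the labelled Batf-deficient libraries, and of the 8 genes that passed the filter only Reg3a and Reg4 lie lower in the labelled Batf-deficient libraries.

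This shift has to be read against that of all genes, because the 3 epithelial genes were themselves among the much lower transcripts. On the same ratio the median of all 15261 genes tested was 4.96, and 94.9% of them were higher in the libraries labelled Batf-deficient. Of all genes tested 30.8% lay above Reg3b and 43.5% above Reg3g, whereas 2.14% lay above Nos2. Lcn2, Fut2 and Duox2 had 80.8%, 82.2% and 84.2% of all genes above them. The ratio therefore shows that the lectins did not follow Krt8, Epcam and Vil1, and does not set them apart from the transcriptome.

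Among 31 listed epithelial genes the lectins were at the top of the order. Of the 31 epithelial genes tested (Krt8, Epcam, Vil1 and a wider list of 28), all had a lower log2 fold change than Reg3b and Reg3g. Lcn2 lay above 30 of the 31, and Fut2 and Duox2 above 29. Reg4 lay above 7 and Reg3a above 4. Of the wider list 27 of 28 were lower by the edgeR test, with a median of -4.63, where 34.1% of all genes tested were lower. Among the 27 were the enterocyte genes Fabp1 (-10.20), Apoa1 (-9.88) and Anpep (-8.53), the tight junction gene Cldn7 (-5.15) and the lectin Lgals4 (-4.65). The exception, noticed after the values were seen, was Muc2, the mucin of goblet cells, with 22.8 ± 5.35 and 23.1 ± 1.36 CPM and a difference of 0.02 on the log2 scale (SE 0.19, edgeR adjusted p = 0.947). Of the 31 genes Muc2 was the nearest to Reg3g, followed by the goblet cell peptide Tff3 at -2.13. In the antimicrobial and IL-22-induced lists below, Defa25 (4.64) and Tifa (0.80) lay above both lectins. Cxcl1 (0.66) and Ubd (0.52, not passing the edgeR test) lay above Reg3g.

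**Figure D3:**
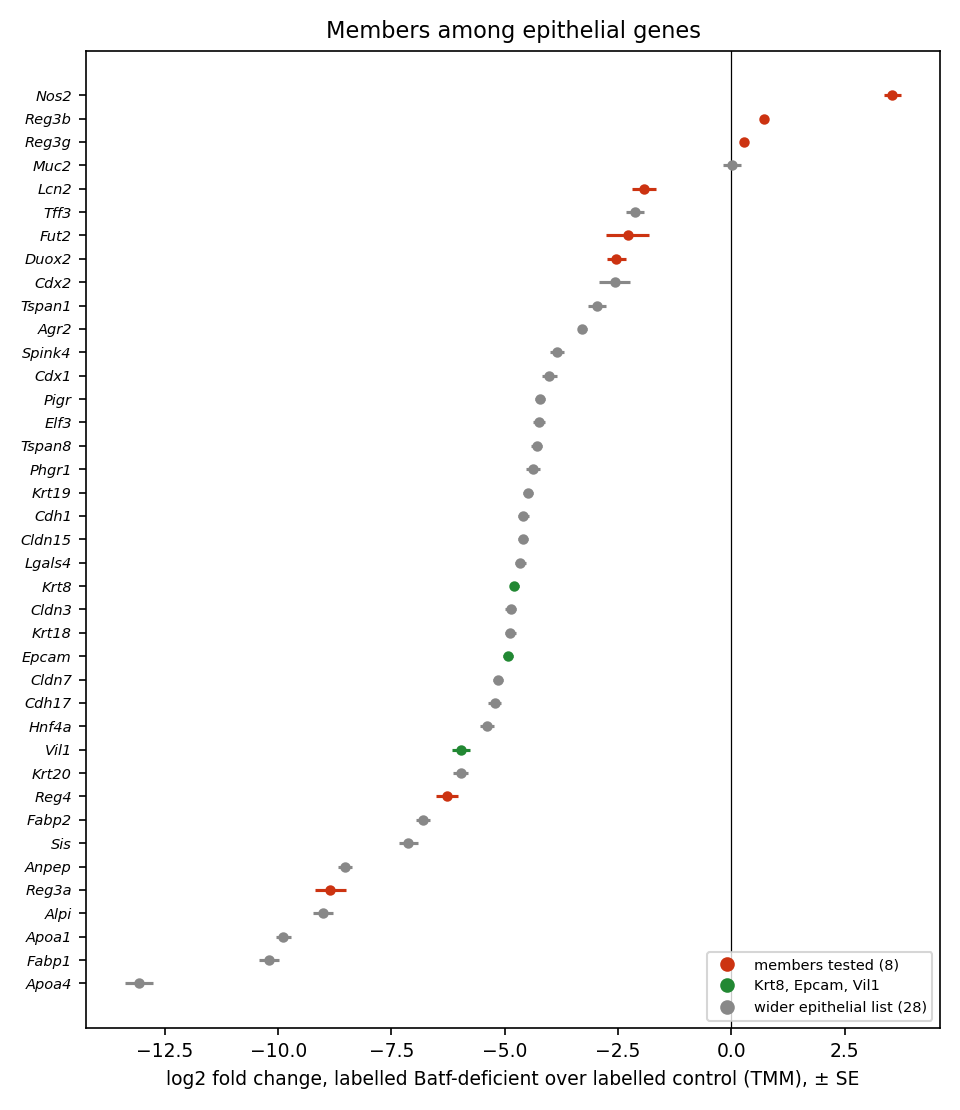
Log2 fold change (labelled Batf-deficient over labelled control, TMM) of the 8 genes tested and of 31 epithelial genes, in order, with horizontal bars for the standard error. Nos2, Reg3b and Reg3g lie above Muc2 at 0.02, Lcn2, Fut2 and Duox2 lie between -1.92 and -2.53, and Reg4 and Reg3a lie among the enterocyte genes.

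Antimicrobial genes of Paneth cells, which sit at the base of the crypts and release defensins and lysozyme, were mostly lower, with a median log2 fold change of -1.93 beside -4.63 for the wider epithelial list. Of 21 tested from a list of 23, 19 were lower, 1 was higher and 1 did not pass, where 34.1% of all genes tested were lower and 30.2% higher. Their summed share was 1.36% to 1.66% against 0.191% to 0.216% of counts. Defa24, with the highest CPM of the list, fell by 2.27 on the log2 scale, from 3093 ± 570.1 CPM to 643 ± 19.3 (SE 0.12, edgeR adjusted p = 1.23e-08), and the lysozyme Lyz1 from 1738 ± 103 to 156 ± 7.34 CPM (-3.47). The angiogenin Ang4 (-4.97) and the lectins Itln1 (-4.35) and Zg16 (-4.34) fell about as much as Krt8. Of 15 α-defensins, 13 were lower, by log2 fold changes from -0.97 (Defa29) to -2.63 (Defa23). Defa25 was higher, with 5 counts in the labelled control and 75 in the labelled Batf-deficient libraries, and was singled out after its value was seen. The exception that did not pass, Defa2, had 0, 0 and 261 counts in the labelled Batf-deficient libraries. Reads of α-defensins, a family of near-identical copies, may be shared between its members. Relative to Krt8, Epcam and Vil1, 14 of the 15 were higher in the libraries labelled Batf-deficient, and 1 of them, Defa25, was above Reg3g. Of all genes tested 94.9% were higher on this ratio, so the count of α-defensins is near the background.

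Other genes that IL-22 or STAT3 is known to raise in epithelium were mostly lower. Of 16 tested from a list of 21, 13 were lower, 2 were higher and 1 did not pass, with a median of -3.64, where the test called 34.1% of all genes lower. The small proline-rich genes Sprr1a and Sprr2a2, of the cell envelope, had log2 fold changes of -7.21 and -6.34, the gasdermin Gsdmc4 -5.40, and the scavenger receptor Dmbt1, a secreted glycoprotein that binds bacteria, -3.42 (edgeR adjusted p between 4.37e-11 and 2.40e-09). Duoxa2, the maturation factor that Duox2 needs, fell by 2.91 on the log2 scale, from 19.1 ± 4.08 CPM to 2.54 ± 0.0424 (SE 0.27, edgeR adjusted p = 1.80e-06), next to Duox2 at -2.53. The exceptions that rose were picked for their values, namely the NF-κB adaptor Tifa (0.80) and the chemokine Cxcl1 (0.66), and with library totals or panel scaling neither was called higher.

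The IL-22 axis itself was split between ligand, receptor and signalling. Il22 rose from 593 ± 45.7 CPM to 5408 ± 279, which is 3.19 on the log2 scale with TMM factors (SE 0.09, edgeR adjusted p = 6.73e-11) and 0.70 with the lymphocyte panel. Il22ra1, the receptor chain that confines the response to epithelium, had 20, 40 and 30 counts against 3, 1 and 6, and fell by 2.37 on the log2 scale (SE 0.65, edgeR adjusted p = 0.00702). Without labelled Batf-deficient replicate 2 its call ended (edgeR adjusted p = 0.0586). The shared chain Il10rb, which lymphocytes also express, was near its threshold at -0.37 (edgeR adjusted p = 0.0485), and did not pass in 9 of the alternatives, with edgeR or limma adjusted p from 0.0600 to 0.102 in those. The IL-22 binding protein gene Il22ra2, made by dendritic cells, had 5.11 ± 0.413 and 0.350 ± 0.306 CPM.

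Of the 16 genes of this list, 10 were higher, 5 lower and 1 (Tyk2) did not pass, beside 30.2% higher and 34.1% lower of all genes tested. Stat3 rose by 1.66 on the log2 scale, from 214 ± 5.32 CPM to 676 ± 7.30 (SE 0.09, edgeR adjusted p = 7.32e-09), Stat5b and Stat5a by 2.65 and 2.52, and Socs3, the feedback inhibitor that STAT3 induces, by 0.92 (SE 0.11, edgeR adjusted p = 1.75e-05). These transcripts are made by lymphocytes as well as epithelium, and the panel scale turned Stat3 to -0.83 and Socs3 to -1.57 and left Stat5b at 0.16 and Stat5a at 0.03, neither of which passed. On that scale 1 gene of the list was higher and 13 were lower, where 277 of all 15261 genes tested were higher and 13359 lower.

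The partners of Fut2, Duox2 and Nos2 in their pathways did not share one direction with TMM factors. Of 17 tested from fucosylation, the epithelial oxidases and nitric oxide metabolism, 4 were higher, 11 lower and 2 did not pass, with a median of -1.38. Of all genes tested 30.2% were higher and 34.1% lower. With the lymphocyte panel 0 of the 17 were higher, where 277 of all 15261 genes tested were. Gmds and Fcsk, which make GDP-fucose, had -2.29 and -2.82, beside -2.29 for Fut2. Noxo1, the organiser of the colonic oxidase NOX1, had -3.63. Arg2, the mitochondrial arginase that competes with Nos2 for arginine, had -6.14. For these 4 lower genes the edgeR adjusted p was between 1.25e-11 and 3.25e-07. The 4 higher genes were Nox1 itself (2.24), Fpgt (1.56), Gch1 (1.0035) and Cyba (0.69), with edgeR adjusted p between 7.33e-06 and 0.00874. Nox1 had few counts, with 32 summed over the labelled control and 87 over the labelled Batf-deficient libraries.

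**Figure D4:**
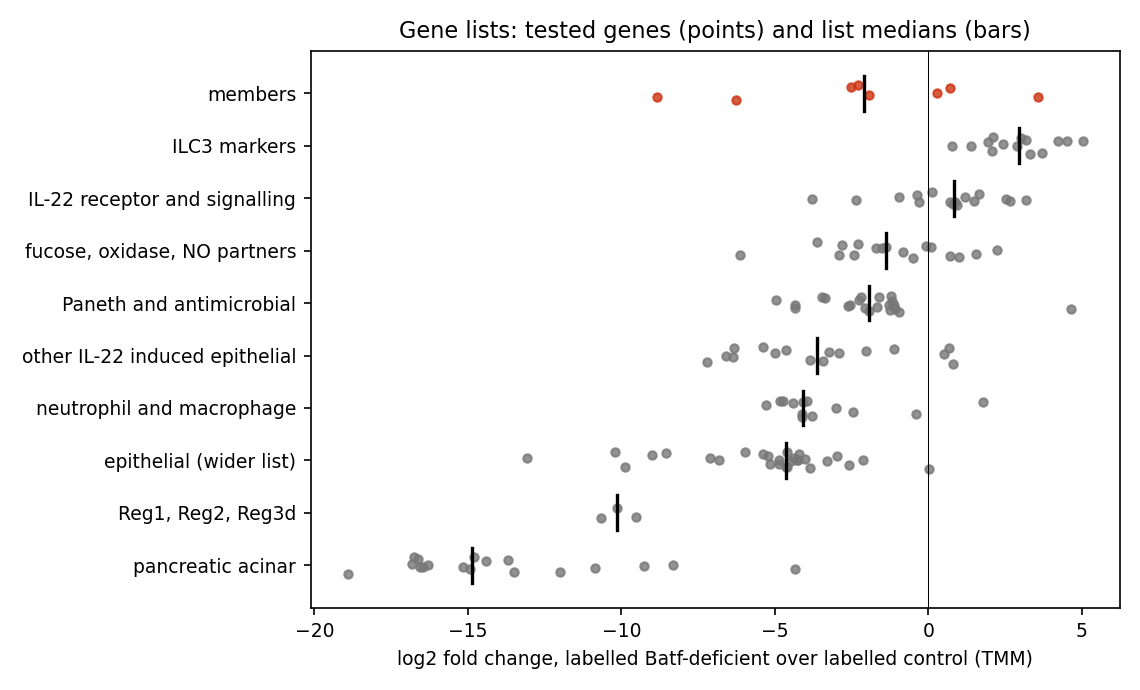
Log2 fold change (labelled Batf-deficient over labelled control, TMM) of the tested genes of each list, with list medians as bars. The 8 genes tested spread from -8.85 to 3.56, the Paneth and antimicrobial list has its median at -1.93, the wider epithelial list at -4.63 and ILC3 markers at 2.94. The bars of the acinar list and of Reg1, Reg2 and Reg3d lie at -14.86 and -10.15, or at -13.96 and -6.70 with genes at 0 counts set to their bound.

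Over the 6 libraries the genes whose log2 CPM ran most nearly parallel to that of Reg3b, the gene of the set with the highest mean level, were Atp6v1f, a subunit of the proton pump (r = 0.9994), Iscu, a scaffold for iron-sulphur clusters (r = 0.9989), and Pfdn5, a prefoldin subunit (r = 0.9986). These values are Pearson correlations among 8864 genes. The 6 points share the step between the groups, and the values are a description.

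**Figure D5:**
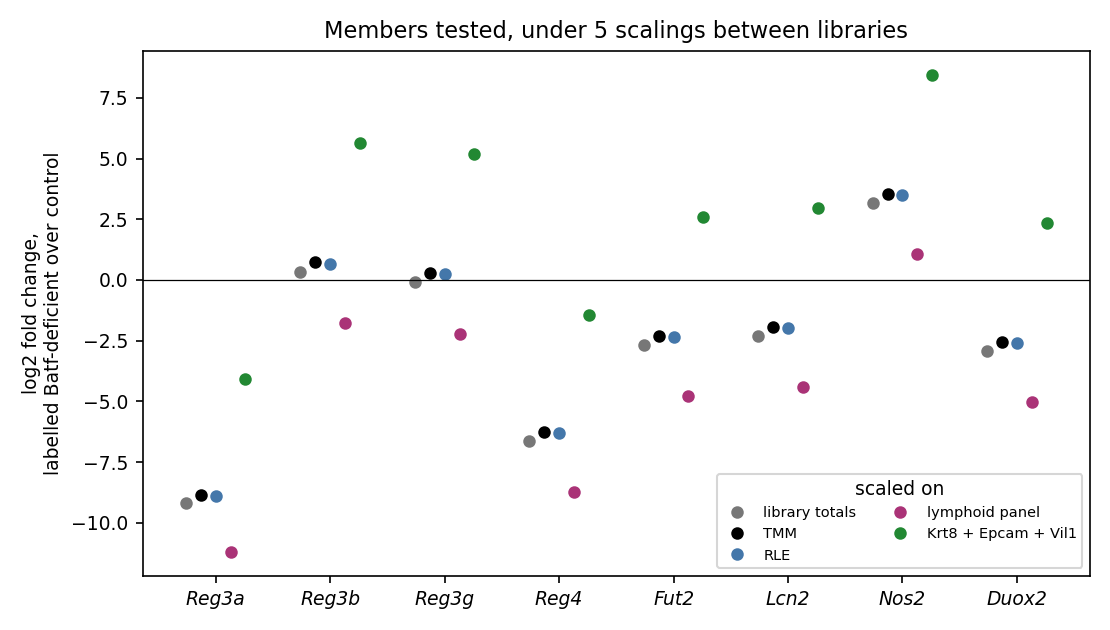
Log2 fold change of the 8 genes tested (vertical axis) when libraries are scaled on library totals, TMM factors, RLE factors, the lymphocyte panel, or the sum of Krt8, Epcam and Vil1. Nos2 is positive and Reg3a and Reg4 are negative under all 5 scalings, while Reg3b runs from -1.77 to 5.62, Reg3g runs from -2.21 to 5.18 and Lcn2, Fut2 and Duox2 turn positive on the epithelial scale only.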

How the data were processed

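The authors deposited 1 table of raw counts by gene symbol for 6 Smart-seq2 libraries, each made from 2 ng of RNA per the labels. Reads were placed on mm10 (per the submitters' processing notes). Which aligner, counter, annotation and strand setting they used is not given in the sources used here, and no batch is labelled. Without molecular identifiers, counts are reads, and intervals and floors cover counting error only. P-values set the difference between the groups against the spread among libraries of a group. Labelled Batf-deficient replicates 1 and 2 were nearly alike, so that spread may be understated.

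Genes were filtered with filterByExpr (minimum count 10), scaled by TMM over full library totals, and tested in edgeR 4.0.16 (R 4.3.3) with a robust quasi-likelihood fit, group as the only term, and Benjamini-Hochberg adjustment over all genes at 0.05. The SE of a log2 fold change is its size divided by the square root of F. The script was tested on simulated data in which few genes changed, as many up as down. That simulation does not cover a shift over most of the transcriptome, as between these groups. Ratios added 0.5 counts before the log. Coordinates and exon lengths are from GENCODE on mm10, and upstream sequences from RefSeq (GRCm38.p6). DESeq2 1.42.0 and limma 3.58.1 served as alternatives. The members and lists were chosen with earlier results of these data known. Named genes were the members, the epithelial reference, 8 pathway genes with Batf, from each list up to 4 called genes with the lowest p and the gene with the highest CPM, and the 3 genes most correlated with the member of highest CPM. Alternatives changed the scaling, the filter, the tool, the reference genes, the replicate block and the libraries included.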

Additional observations from a re-analysis of the deposited data

How the results depend on the processing

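The scaling between libraries decided most. With library totals 3052 genes were higher in the libraries labelled Batf-deficient, Reg3g turned to -0.10, and 0 other IL-22-induced genes were higher. With the lymphocyte panel 277 genes were higher and 13359 lower, the median of all genes shifted by -2.48, Reg3b turned to -1.77, Reg3g to -2.21, Batf to -1.20, Stat3 to -0.83 and Socs3 to -1.57. On that scale 1 gene of IL-22 signalling was higher and 13 lower, and 0 other induced genes were higher. Scaling on Krt8, Epcam and Vil1, added after seeing the data, turned Fut2 to 2.61, Lcn2 to 2.97 and Duox2 to 2.37. The number of other induced genes that were higher was 1 without the filter, with limma voom (added after seeing the data) and with labelled Batf-deficient replicates 1 and 2 averaged. That average left 3 genes of IL-22 signalling lower. The cause of these changes was not tested.

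Leaving out 1 library at a time gave 3603 to 4705 genes higher and 5149 to 5451 lower, 0 to 2 other induced genes higher, and 2 to 5 genes of IL-22 signalling lower. The count of 2 came without labelled Batf-deficient replicate 2 and the count of 0 without labelled Batf-deficient replicate 1. Against the epithelial reference Reg3b ranged from 5.60 to 5.66 and Reg3g from 5.14 to 5.26. With Krt8 alone Reg3b was at 5.50, with Vil1 alone Reg3b was at 6.74 and Reg3g at 6.31, and with the wider list 5.82 and 5.38.

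Replicate numbers are shared by the groups without a stated pairing. Deviations of same-numbered libraries correlated by 0.0045, 0.0209 and 0.0304, and 3 of 6 libraries correlated best with their own number. With the replicate block 4603 genes were higher and 5091 lower. Of 792 recomputed values of single genes, 755 kept their direction and call or moved by less than the replicate spread.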

Other observations

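The composition of the epithelial reference differed between the groups. Vil1 made up 10.2% to 11.6% of the counts of Krt8, Epcam and Vil1 in the labelled control and 3.78% to 6.35% in the labelled Batf-deficient libraries, while Krt8 made up 70.1% to 70.9% and 75.7% to 77.5%. Krt20, a keratin of differentiated villus cells, had 89.4 ± 7.44 and 41.8 ± 8.28 counts per 1000 of them, and Agr2, a chaperone of secretory cells, 157 ± 9.92 and 479 ± 8.25. These genes were picked outside the naming rule. On the log2 scale of this ratio Krt20 was at -1.10 and Agr2 at 1.61, both below the median of 4.96 over all genes tested. Secretory genes did not share one value, with Ang4 at -0.05 and Muc2 at 4.95. The ratio of Duox2 to Duoxa2 counts was 1.09, 1.62 and 1.02 in the labelled control and 1.61, 1.67 and 1.41 in the labelled Batf-deficient libraries, with overlap between the groups.

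Stromal and endothelial markers were lower for 10 of 12, higher for 1 and not called for 1, where 34.1% of all genes tested were lower and 30.2% higher. Their median log2 fold change was -3.91, and their summed share was 0.126% to 0.135% of counts against 0.0124% to 0.0152%. The single higher call was lost with library totals, with the lymphocyte panel, and without labelled control replicate 1 or 2 or labelled Batf-deficient replicate 1 or 3. The collagens Col1a1, Col3a1 and Col1a2 fell by 6.67, 6.04 and 5.80 on the log2 scale and the proteoglycan Dcn by 3.25 (edgeR adjusted p between 5.71e-11 and 4.85e-10). Among ILC3 markers the cytokine gene Il17a rose by 5.04, the transcription factor gene Tbx21 by 4.50 and the receptor gene Kit by 3.01 (edgeR adjusted p between 5.50e-11 and 2.46e-10).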
